A study of Mus musculus with 6 samples.

Results

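Cells that divide switch on a shared set of genes, and 40 of these genes were followed here through mouse kidneys that were left untouched, that were rejected after transplantation, or that were tolerated. The genes were taken by symbol, 15 of them acting mainly in DNA synthesis (S phase) and 25 in G2 and mitosis (G2/M). All 40 were among the 28208 genes that the files of all 6 kidneys share, and each had at least 1 UMI (unique molecular identifier, a tag that counts an RNA molecule once) in every kidney. In all, 6 classes of cells were compared, and a barcode, the droplet label that stands for a cell, was counted as holding cell cycle RNA when at least 3 of the 40 genes were detected in it. By that count 6220 of 45667 barcodes (13.6%) qualified.

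Single-cell RNA-seq was performed on 2 kidneys per group. Naive kidneys came from wild-type C57BL/6 (B6) male mice aged 10 to 12 weeks that had no transplant. Rejecting and tolerized kidneys were BALB/c kidneys, labelled with an age of 6 to 7 weeks, that had been placed into B6 males whose own kidneys had both been removed, and they were taken 15 days after transplantation. Recipients of tolerized kidneys had also been given BALB/c spleen cells fixed with ethylenecarbodiimide (ECDI) by vein before and after the operation, and recipients of rejecting kidneys had not. Naive and transplanted kidneys therefore differed in strain, age and surgery at once, and these cannot be told apart. Their matrices also list different genes, 28692 in naive and 31053 in transplanted kidneys. A difference in library preparation or upstream processing cannot be told apart from the others either. In the transplants, cells of the donor kidney and cells of the recipient share each suspension and were not separated. With 2 kidneys against 2, an exact two-sided permutation test cannot go below p = 0.333, so shares and summed levels are given as values, and only the fit across all genes was tested.

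A dividing cell first loads the MCM helicase onto its DNA with the help of licensing factors such as Cdc6. The inhibitor geminin (Gmnn) helps keep that step to a single round. In S phase the fork needs the clamp Pcna, nucleotide suppliers such as Rrm1, Rrm2, Tyms and Tk1, and chromatin factors such as Uhrf1 and Hells. Cyclins A and B with Cdk1, the kinases Plk1, Aurka and Aurkb, and centromere and spindle proteins then carry the cell through mitosis, which the anaphase-promoting complex with Cdc20 and Ube2c brings to its end. Renal tubular cells rarely divide in a healthy adult kidney but can do so after injury, T cells divide when they meet antigen, and neutrophils have left the cycle for good.

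The promoters of these genes carry known cell cycle elements, and 4 of them are shown because their letters differ between the G2/M and the S-phase genes. Of the 40 genes, 34 had a RefSeq promoter window (GRCm38.p6), of which the 250 bases before the start were read on both strands. A CCAAT box (CCAAT) stood in 18 of 21 G2/M windows (85.7%), 9 of 13 S-phase windows (69.2%) and 37.5% of the windows of all 27025 symbols. The cell cycle homology region (CHR, searched as TTTGAA or TTCGAA) stood in 9 of 21 G2/M windows (42.9%), 2 of 13 S-phase windows (15.4%) and 19.6% of all windows, and both elements stood together in 42.9%, 15.4% and 7.93%. E2F letters (TTTGGCGC, TTTCGCGC, TTTCCCGC or TTTGCCGC) stood in 1 of 21 G2/M windows (4.76%), 6 of 13 S-phase windows (46.2%) and 2.16% of all windows. A match describes the letters in this window and is not a measured binding site. Capitals mark these matches on either strand (ATTGG is a CCAAT box read from the other strand) in the sequences below, given 5′ to 3′ on the gene's strand. Top2a lies on the minus strand (chr11:99024190-99024439), as do Ccnb2 (chr9:70421555-70421804) and Cdc20 (chr4:118437344-118437593), while Hells lies on the plus strand (chr19:38930740-38930989).
Top2a: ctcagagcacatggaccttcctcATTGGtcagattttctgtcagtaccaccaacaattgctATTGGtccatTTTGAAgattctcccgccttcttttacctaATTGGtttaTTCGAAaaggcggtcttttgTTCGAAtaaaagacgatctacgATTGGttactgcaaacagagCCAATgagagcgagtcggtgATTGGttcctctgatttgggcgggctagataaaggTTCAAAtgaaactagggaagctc
Ccnb2: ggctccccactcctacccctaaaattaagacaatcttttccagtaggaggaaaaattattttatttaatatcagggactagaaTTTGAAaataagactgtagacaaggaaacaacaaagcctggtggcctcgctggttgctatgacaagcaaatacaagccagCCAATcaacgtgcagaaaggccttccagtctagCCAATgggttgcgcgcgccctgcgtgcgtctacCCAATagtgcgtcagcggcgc
Cdc20: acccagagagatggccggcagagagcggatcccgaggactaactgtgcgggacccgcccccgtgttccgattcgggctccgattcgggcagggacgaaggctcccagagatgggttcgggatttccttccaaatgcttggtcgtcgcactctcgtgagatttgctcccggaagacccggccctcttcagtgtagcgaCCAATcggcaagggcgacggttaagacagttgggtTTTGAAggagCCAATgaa
Hells: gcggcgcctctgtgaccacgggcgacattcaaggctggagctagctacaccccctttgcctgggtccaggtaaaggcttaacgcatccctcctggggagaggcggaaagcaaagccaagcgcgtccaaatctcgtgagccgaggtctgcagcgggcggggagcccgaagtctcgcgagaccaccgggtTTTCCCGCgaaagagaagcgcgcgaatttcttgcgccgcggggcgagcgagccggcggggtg
The windows of the 3 G2/M genes hold CCAAT boxes with 1 or more CHR matches, and that of Hells, an S-phase gene, holds an E2F match and neither of the others. By the counts above, many windows do not split this cleanly. That of Mcm5, also an S-phase gene, holds 2 CCAAT boxes and 2 E2F matches. No window was given for Ccna2, Aurkb, Kif20a, Tpx2, Mcm4 and Gmnn.

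The kidneys yielded 8532 to 13378 barcodes and 34874702 to 96803926 UMIs each. After filters and the removal of 4130 called doublets, 45096 barcodes lay in 42 clusters that could be named from markers, with the cell cycle genes kept out of the clustering so that dividing cells stayed with their lineage. The classes used here are tubular (proximal tubule-, loop of Henle-, distal convoluted tubule- and collecting duct-like), endothelium-like, T cell-like, B cell-like, NK cell-like and myeloid (macrophage-, monocyte-, conventional DC- and neutrophil-like). Naive kidneys held 4 barcodes in clusters named T cell-like and none in the NK cell-like cluster, so those classes were compared between transplants alone. A cluster of 38 and 53 barcodes from naive 1 and naive 2 was led by Lef1 and Tcf7 and held 8 T cell markers, but its 10 leading genes held more markers of another class than of T cells, so it was left unnamed and enters no comparison. Before the filters, the same barcode sequence was listed in a naive and a transplanted kidney 0 to 4 times per pair of kidneys. It was listed in a pair of transplants 18 to 35 times and in both naive kidneys 111 times. Naive and transplanted kidneys thus also stood apart in their barcodes, and the reason was not tested. Rejecting 1 had the fewest UMIs per barcode (median 2535, against 3460 to 7294 in the other kidneys), with a median of 1305 UMIs per T cell-like barcode against 2718 in rejecting 2 and 4617 and 4860.5 in the tolerized kidneys.

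The clusters behind a class differed between the kidneys. All barcodes of 4 proximal tubule-like clusters, with 4000, 2055, 1617 and 997 barcodes, came from naive kidneys. Of 2 others, with 2092 and 717 barcodes, 2055 and 700 came from rejecting 1, which had 3928 tubular barcodes in all. The clusters of 3501, 1373 and 1123 barcodes that held most proximal tubule-like barcodes of the other transplants had 12, 11 and 1 from rejecting 1. In the same way 2 T cell-like clusters, of 2081 and 973 barcodes, had 2039 and 967 from rejecting 1, while another, of 2746 barcodes, had 16. Nearly all naive endothelium-like, B cell-like and myeloid barcodes also lay in clusters apart from those of the transplants. Values within a class therefore set different clusters side by side, and what separates these clusters was not tested.

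With all kept barcodes pooled, those in unnamed clusters included, the groups stood apart, which was not so in every class. The 40 genes together were then at a higher level in rejecting than in tolerized kidneys and higher in tolerized than in naive kidneys. Their summed level, in UMIs scaled to all UMIs of the kept barcodes of the kidney, or of the class where a class is named (CPM), was 125 and 183 in naive 1 and naive 2, with 630 and 804 for rejecting and 312 and 289 for tolerized kidneys. As means this was 154 ± 41.5 (SD, n = 2), 717 ± 123 and 301 ± 16.4 CPM, and no kidney of a group overlapped those of another. The S-phase genes gave 1.94 times and the G2/M genes 2.89 times as many CPM in rejecting as in tolerized kidneys. In such sums over all cells, more dividing cells and more of a cell type that divides cannot be told apart.

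The cells that held this RNA differed between the groups. In the naive kidneys 86.3% and 82.7% of the barcodes with at least 3 of the genes were tubular. In the rejecting kidneys T cell-like barcodes made up 37.2% and 37.7% and myeloid barcodes 38.1% and 44.7%, leaving 19.4% and 13.1% to tubular barcodes. In the tolerized kidneys tubular barcodes made up 29.0% and 49.8%, T cell-like barcodes 31.7% and 23.1% and myeloid barcodes 31.8% and 16.6%. B cell-like barcodes stayed between 1.85% and 4.39% of the total in the 4 transplants and NK cell-like barcodes between 0.530% and 1.54%. Doublets had been called for 12.4% of such barcodes in either rejecting kidney and for 15.4% and 7.31% in the tolerized kidneys, against 5.32% to 10.42% of the transplants' other barcodes, and were removed.

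**Figure D1:**
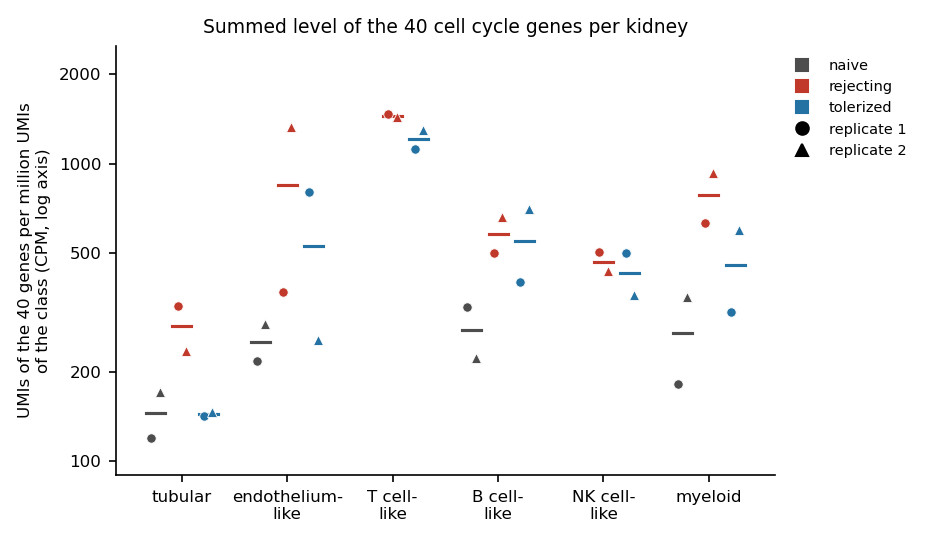
Summed level of the 40 genes in CPM of each class (log axis) in each naive (grey), rejecting (red) and tolerized (blue) kidney, with circles for replicate 1, triangles for replicate 2 and a line at each mean. T cell-like barcodes have the highest means, and in tubular barcodes both rejecting kidneys (333 and 236 CPM) lie above the other 4 kidneys (120 to 171 CPM).

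The share of barcodes with at least 3 of the genes moved with sequencing depth, and its order between rejecting and tolerized kidneys did not follow the summed level. In T cell-like barcodes the share was 15.9% (exact 95% interval 14.7% to 17.2%) and 22.2% (20.6% to 23.8%) in rejecting kidneys and 32.7% (30.4% to 35.0%) and 31.4% (28.4% to 34.6%) in tolerized kidneys. The intervals cover counting error alone. Each barcode was then thinned to 1000 UMIs, which left out 3405 shallower barcodes, 1222 of them T cell-like barcodes of rejecting 1. After thinning the T cell-like shares were 7.15% and 5.16% in rejecting kidneys against 4.33% and 4.37% in tolerized kidneys, so the order was turned round. Leaving out shallow barcodes also moved these shares. In a T cell-like cluster of rejecting 1 the share was 7.31% of 2039 barcodes before thinning and 9.11% of the 845 left after it. The thinned share of rejecting 1 is therefore not a correction for depth alone.

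Thinning also changed the order in tubular barcodes and narrowed or turned round the gap in the NK cell-like and myeloid ones. Tubular shares were 7.28% and 11.2% in rejecting kidneys against 11.1% and 15.7% in tolerized kidneys before thinning, at median depths of 2824 and 4454 against 7003 and 10870 UMIs, and 1.65% and 1.72% against 0.530% and 0.603% after it. Naive tubular barcodes, at median depths of 3764.5 and 3657.5 UMIs, gave 1.73% and 2.56% before and 0.324% and 0.696% after thinning, so that the tolerized kidneys stood above the naive ones before thinning and among them after it. NK cell-like shares went from 6.30% and 6.78% against 15.7% and 16.4% to 2.33% and 0% against 1.77% and 0%. Myeloid shares went from 24.0% and 28.1% against 28.1% and 26.1% to 2.96% and 4.98% against 1.27% and 3.01%. No order is read from a share that goes against the summed level, and the summed level is used below.

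As a background, proximal tubule-like barcodes of the naive kidneys, cells that seldom divide, held at least 3 of the genes in 1.20% and 2.18% of cases at median depths of 3297 and 3376.5 UMIs. Neutrophil-like barcodes gave 0 of 44 and 0 of 36 in rejecting kidneys and 0 of 36 and 0 of 34 in tolerized kidneys, at median depths of 1288.5 to 3024.5 UMIs, which allows shares of up to 6.82% to 8.82% at 3 counts of the total, with exact 95% upper limits of 8.04% to 10.28%. The summed level in those neutrophil-like barcodes was 251 to 332 CPM, although no barcode reached 3 genes.

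**Figure D2:**
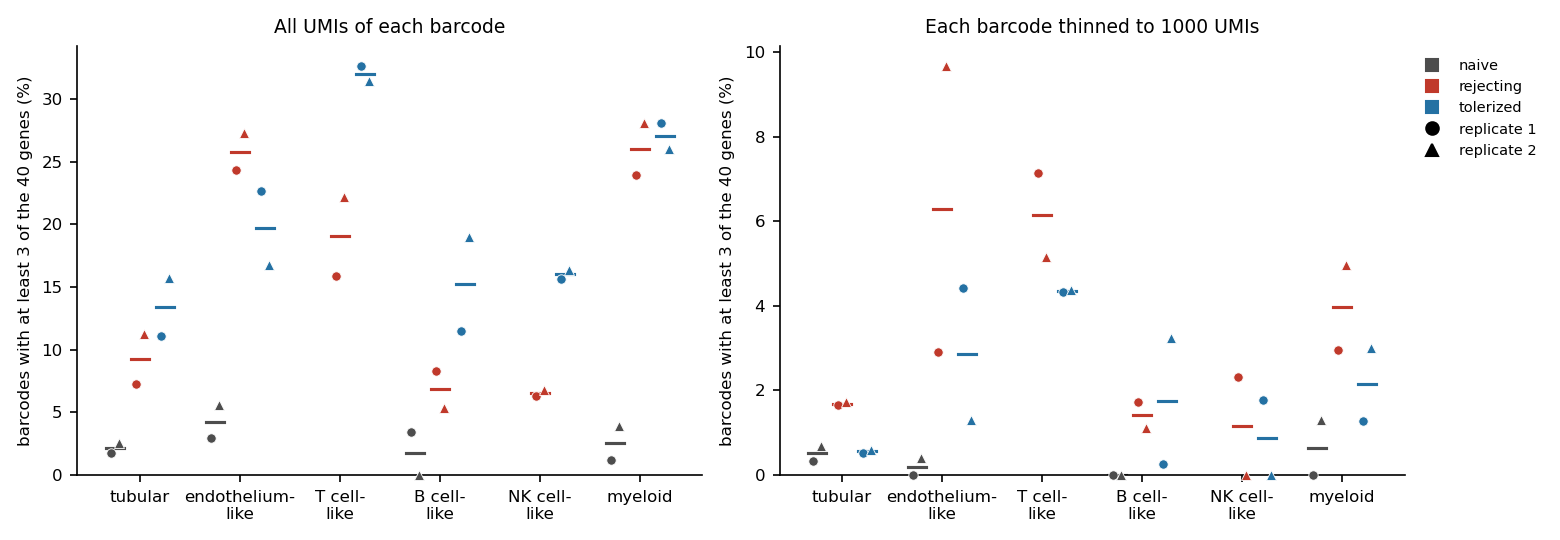
Share of barcodes with at least 3 of the 40 genes (%) per kidney and class, from all UMIs (left) and after thinning each barcode to 1000 UMIs (right), with the colours and symbols of the plot of summed levels. In T cell-like barcodes the tolerized kidneys stand above the rejecting ones on the left (32.7% and 31.4% against 15.9% and 22.2%) and below them on the right (4.33% and 4.37% against 7.15% and 5.16%).

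In tubular barcodes the genes were at about 2 times the level in rejecting as in tolerized kidneys, with a wider gap for the G2/M genes (ratio of means 2.98) than for the S-phase genes (1.51). The summed level was 333 and 236 CPM in rejecting, 142 and 146 CPM in tolerized and 120 and 171 CPM in naive kidneys, giving means of 284 ± 68.5, 144 ± 3.19 and 146 ± 36.3 (SD, n = 2 each). The G2/M genes gave 174 and 99.8 CPM in rejecting kidneys, 36.4 and 55.6 in tolerized kidneys and 33.4 and 59.6 in naive kidneys. The S-phase genes gave 159 and 136, 105 and 90.6, and 86.7 and 112 CPM in the same order. Both rejecting kidneys lay above all others on each of these sums.

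Along the tubule the groups stood apart in the proximal tubule and not in every other segment. Proximal tubule-like barcodes gave 317 and 303 CPM in rejecting, 134 and 162 in tolerized and 109 and 167 in naive kidneys. Collecting duct-like barcodes gave 542 and 217 CPM in rejecting against 183 and 166 in tolerized kidneys, from 64 to 157 barcodes a kidney, and 235 and 200 CPM in naive kidneys, which overlapped the rejecting ones. In loop of Henle-like barcodes (317 and 137 against 158 and 122 CPM) and in distal convoluted tubule-like barcodes (404 and 107 against 165 and 98.7 CPM) the 2 groups overlapped.

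No gene in tubular barcodes passed the test between rejecting and tolerized kidneys, although the 40 genes leaned one way. With edgeR's quasi-likelihood test, 0 of the 40 and 0 of all 13897 genes (0%) reached an adjusted p of 0.05, the smallest adjusted p among the 40 being 0.279. At an unadjusted p under 0.05 there were 24 of the 40 (60%), where 9.24% of all tested genes reached it. The log2 change was above 0 for 39 of the 40, where 48.3% of all genes were above 0, with a median of 1.12 over the 40 (0.85 over the S-phase and 1.45 over the G2/M genes) and of -0.01 over all genes. Both rejecting kidneys lay above both tolerized kidneys for 29 of the 40 (16.7% of all genes), and Gmnn was the 1 gene for which they lay below (17% of all genes). DESeq2 called 6 of the 40, all higher in rejecting kidneys (Hmmr, Top2a, Mki67, Tpx2, Cenpe and Hells), and 210 genes in all (1.51%). With no filter on low counts edgeR called 15 of the 40 (3.36% of all genes). These 6 were named after their values were seen.

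Among the S-phase genes, the helicase subunit Mcm5 was at 7.03 and 4.12 CPM in rejecting and 4.07 and 2.15 CPM in tolerized kidneys. The clamp Pcna was at 16.2 and 18.6 CPM against 8.71 and 12.7 CPM. The ribonucleotide reductase subunit Rrm2 was at 7.25 and 4.89 CPM against 2.39 and 3.07 CPM. The groups did not overlap for these 3 genes, with log2 changes of 0.85 ± 0.41 (SE), 0.70 ± 0.22 and 1.16 ± 0.36 that did not pass the test. Among the G2/M genes, Mki67, which coats mitotic chromosomes and is widely used to mark dividing cells, was at 16.2 and 8.52 CPM in rejecting and 2.45 and 4.88 CPM in tolerized kidneys. Top2a, the topoisomerase that untangles sister chromosomes, was at 21.3 and 9.92 CPM against 3.90 and 5.89 CPM. Birc5 (survivin), a subunit of the chromosomal passenger complex, was at 11.8 and 4.68 CPM against 2.39 and 3.49 CPM. Rejecting 1 was the highest of the 4 kidneys for all 3, and rejecting 2 was the next, with log2 changes of 1.76 ± 0.41, 1.68 ± 0.38 and 1.5 ± 0.55. Without rejecting 1 the median over the 40 genes was 0.77, so the difference was smaller without that kidney. Leaving out 1 kidney at a time gave medians from 0.77 to 1.46.

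Leukocyte RNA was also higher in the tubular barcodes of rejecting kidneys. The 10 T cell markers summed to 178 and 40.5 CPM there, against 18.7 and 13.4 CPM in tolerized and 3.11 and 2.63 CPM in naive kidneys. The 10 macrophage markers summed to 533 and 204, 169 and 87.2, and 81.5 and 71.9 CPM. No marker of either list was at 0 in a transplant, and 2 T cell markers were at 0 in each naive kidney. When barcodes with any UMI of 38 leukocyte markers were left out, a choice made after seeing the data, 507 and 954 tubular barcodes remained in rejecting and 2644 and 2627 in tolerized kidneys. That was 12.9% of the tubular barcodes in rejecting 1, 54.1% in rejecting 2 and 58.6% and 67.5% in the tolerized kidneys. The 38 markers came from the T cell, B cell, NK cell and macrophage lists, and not from the monocyte or conventional DC lists. In the barcodes that remained, the summed level was 309 and 234 CPM in rejecting, 142 and 142 CPM in tolerized and 121 and 172 CPM in naive kidneys. Both rejecting kidneys again lay above the others. The log2 change was then above 0 for 37 of 38 genes tested, at a median of 1.16. The share above 0 over all genes in that fit is not given here, so no excess is read from this count. Among all tubular barcodes of rejecting kidneys, 90.9% and 57.6% of those with at least 3 of the genes held a leukocyte marker UMI. The rest held such a UMI in 86.8% and 44.4% of cases. The shares were 58.5% and 43.3% against 39.3% and 30.5% in tolerized kidneys, and 3.74% and 10.1% against 4.04% and 5.67% in naive kidneys. The part of leukocyte RNA in these differences was not tested.

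**Figure D3:**
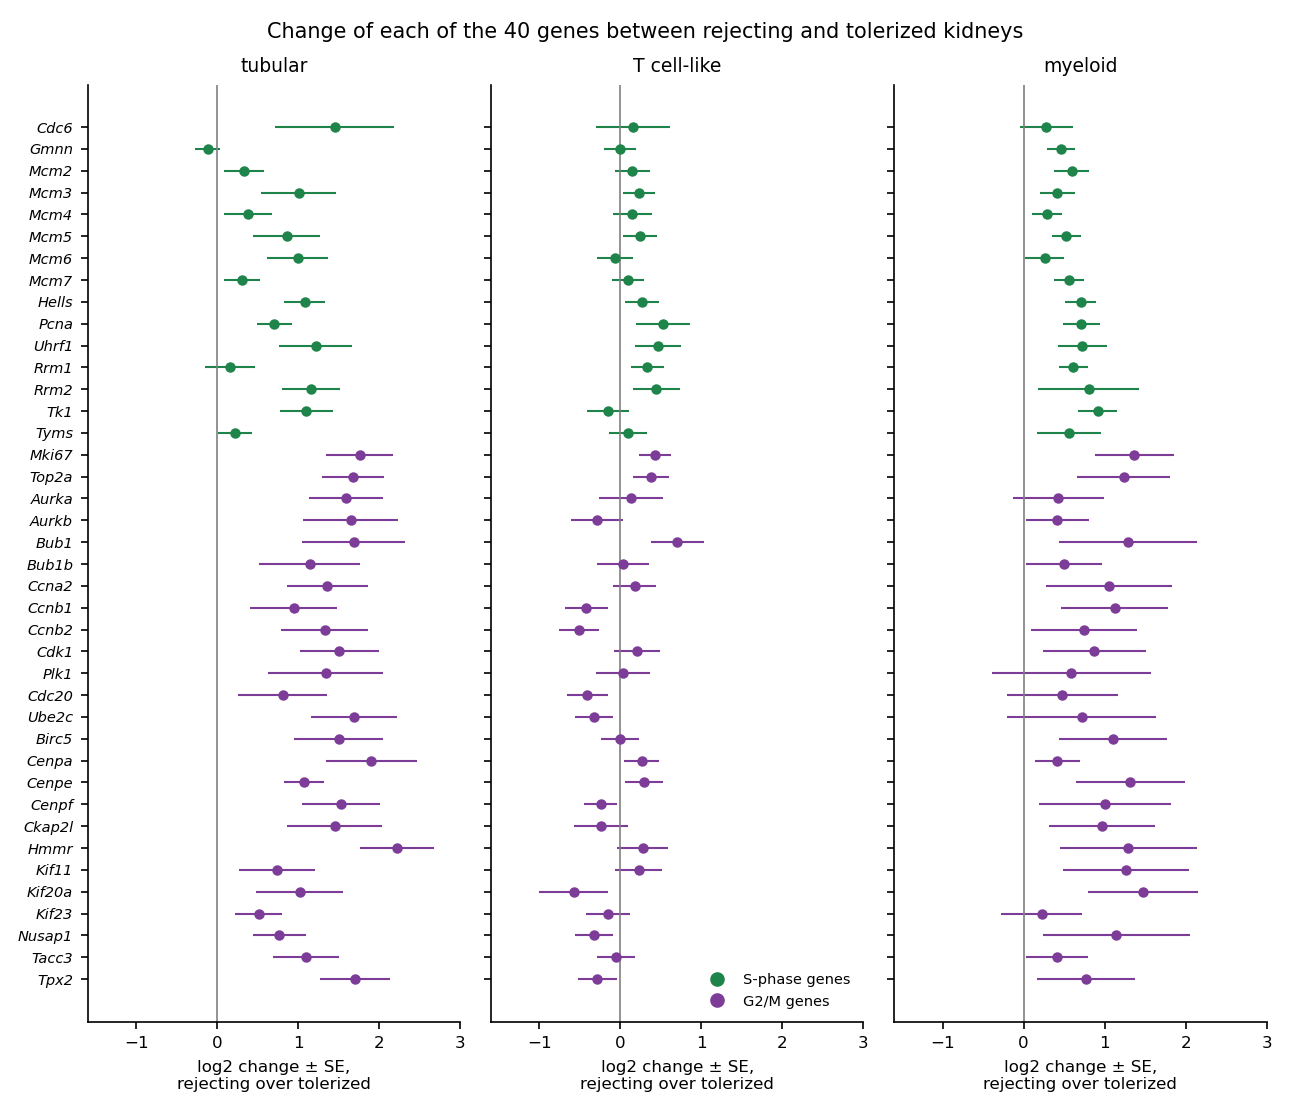
Log2 change of each of the 40 genes between rejecting and tolerized kidneys with its standard error, from edgeR on summed UMIs, in tubular, T cell-like and myeloid barcodes, ordered by role with S-phase genes in green and G2/M genes in purple. The changes lie above 0 for 39 genes in tubular, 24 in T cell-like and 40 in myeloid barcodes, and none passed an adjusted p of 0.05.

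Against naive kidneys, 13 of the 40 genes changed in tubular barcodes of rejecting kidneys and 5 of the 40 in those of tolerized kidneys, and the direction differed between the genes. In rejecting kidneys 12 rose (30%), where 18.1% of all tested genes rose, and Mcm6 fell (2.5%, where 15.1% of all genes fell). Besides those described below, Tpx2, Kif11, Uhrf1, Cenpe and Mcm4 rose. As a share of either direction the 40 genes (32.5%) were close to the background (33.3%). In tolerized kidneys Hells rose (2.5%, where 12.6% of all genes rose) and Mcm6, Pcna, Tk1 and Rrm2 fell (10%, where 10.2% of all genes fell), 12.5% in all, where 22.8% of all genes were called. Both comparisons use the same naive kidneys.

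The genes that rose most in rejecting kidneys were 3 G2/M and 2 S-phase genes. Hmmr, a spindle-associated protein, was at 0.645 and 1.60 CPM in naive and 9.40 and 7.54 CPM in rejecting kidneys (log2 change 2.95 ± 0.50, edgeR adjusted p = 0.00404). Cenpf, a kinetochore protein, was at 1.25 and 1.98 CPM against 14.2 and 6.91 CPM (2.73 ± 0.54, edgeR adjusted p = 0.0071). Mcm3, a subunit of the replicative helicase, was at 0.564 and 1.23 CPM against 5.15 and 4.75 CPM (2.49 ± 0.52, edgeR adjusted p = 0.00914). For these 3 genes both rejecting kidneys lay at least 3 times above the higher naive kidney. Hells, a chromatin remodeller, was at 1.81 and 2.08 CPM in naive, 9.85 and 7.403 CPM in rejecting and 4.52 and 3.68 CPM in tolerized kidneys. It rose by 2.15 ± 0.28 in rejecting (edgeR adjusted p = 0.00133) and by 1.08 ± 0.27 in tolerized kidneys (edgeR adjusted p = 0.0258). The call in tolerized kidneys was lost when barcodes had at most 20% mitochondrial UMIs (0.36, edgeR adjusted p = 0.414) and without naive 1, naive 2, tolerized 1 or tolerized 2 (edgeR adjusted p = 0.0523 to 0.162). Top2a was at 3.02 and 4.33 CPM in naive kidneys, and its rise in rejecting kidneys was 2.11 ± 0.40 (edgeR adjusted p = 0.00657). Mki67, at 5.80 and 4.06 CPM in naive kidneys, rose by 1.33 ± 0.41 (edgeR adjusted p = 0.0409) and Mcm5, at 1.45 and 2.30 CPM in naive kidneys, by 1.59 ± 0.44 (edgeR adjusted p = 0.0265).

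Mcm6, another subunit of the same helicase as Mcm3 and Mcm5, went the other way. It was at 8.62 and 8.18 CPM in naive, 4.47 and 2.58 CPM in rejecting and 2.33 and 1.27 CPM in tolerized kidneys, and fell by 1.23 ± 0.37 (edgeR adjusted p = 0.0352) and by 2.23 ± 0.37 (edgeR adjusted p = 0.0053) on the log2 scale. The fall in rejecting kidneys did not pass with called doublets kept (edgeR adjusted p = 0.0536), in barcodes with no leukocyte marker UMI (edgeR adjusted p = 0.0737) or without naive 1, naive 2 or rejecting 2 (edgeR adjusted p = 0.117 to 0.14). Pcna was at 21.5 and 24.3 CPM in naive kidneys and fell by 1.10 ± 0.21 in tolerized kidneys (edgeR adjusted p = 0.00992). Rrm2 was at 5.68 and 11.0 CPM in naive kidneys and fell by 1.60 ± 0.36 (edgeR adjusted p = 0.017), and the thymidine kinase Tk1 was at 4.71 and 8.29 CPM there, against 2.86 and 3.03 CPM, and fell by 1.13 ± 0.33 (edgeR adjusted p = 0.0406). Birc5 was at 2.62 and 7.43 CPM in the naive kidneys and overlapped both transplanted groups. Gmnn stood between 19.7 and 23.4 CPM in all 6 kidneys.

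These counts changed when 1 kidney was left out, which leaves 1 kidney in its group. The log2 changes between rejecting and naive kidneys then ran from 1.9 to 2.3 for Hells, from 2.4 to 3.7 for Hmmr and from -1.7 to -0.91 for Mcm6. Without naive 1, 2 of the 40 genes (Hmmr and Hells) were called between rejecting and naive kidneys (5%, where 14.1% of all genes were called), and 8 (20%) were called without naive 2 (13% of all genes) or without rejecting 1 (22.5% of all genes). Between tolerized and naive kidneys 1 gene was called without naive 2 (6.4% of all genes), 2 without tolerized 1 (12.9%) and 3 without tolerized 2 (11.8%). With called doublets kept, 21 of the 40 rose in rejecting kidneys, where 34.6% of all genes were called in either direction. In tubular barcodes with no leukocyte marker UMI, 9 of 38 genes rose between naive and rejecting kidneys and none fell. In that fit 24.7% of all genes were called in either direction.

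**Figure D4:**
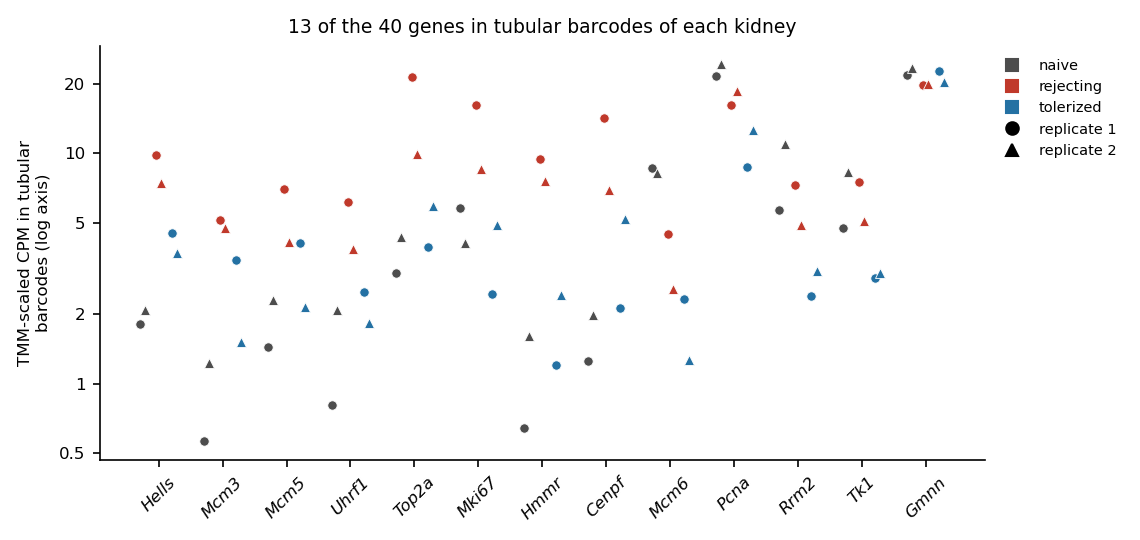
TMM-scaled CPM (log axis) of 13 of the 40 genes in tubular barcodes of each kidney, with circles for replicate 1 and triangles for replicate 2. Hells, Mcm3 and Cenpf are lowest in naive kidneys (grey), Mcm6 is highest there (8.62 and 8.18 CPM), and Gmnn stands between 19.7 and 23.4 CPM in all 6.

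The 50 other genes of the cycle, separate from the 40, were called in tubular barcodes near or below the share of all genes. That holds for both directions counted together. Between rejecting and naive kidneys 17 of 47 tested passed (36.2%, background 33.3%). Of the 47, 13 rose (27.7%, where 18.1% of all genes rose) and 4 fell (8.51%, where 15.1% fell). Between tolerized and naive kidneys 6 of 47 passed (12.8%, background 22.8%), 3 up and 3 down. Between rejecting and tolerized kidneys none passed, and DESeq2 called 1, Myc. By edgeR 10 of 47 had an unadjusted p under 0.05 (21.3%, where 9.24% of all genes did). The log2 change was above 0 for 35 of the 47 (74.5%, where 48.3% of all genes were), so other cell cycle genes leaned the same way. The kinase Wee1, which holds Cdk1 inactive, was at 1.81 and 1.98 CPM in naive, 13.9 and 9.50 CPM in rejecting and 8.81 and 10.3 CPM in tolerized kidneys, rising by 2.63 ± 0.27 (edgeR adjusted p = 0.000425) and 2.33 ± 0.26 (edgeR adjusted p = 0.00084). The G1 cyclin Ccnd1 was at 112 and 117 CPM in naive kidneys, with 206 and 256 CPM in rejecting and 261 and 268 CPM in tolerized ones, and also rose in both (1.01 ± 0.18 and 1.20 ± 0.18). The inhibitor Cdkn1a (p21) was at 9.59 and 12.7 CPM in naive kidneys, with 34.9 and 35.7 CPM in rejecting and 27.2 and 13.1 CPM in tolerized ones and passed in rejecting kidneys (1.67 ± 0.33, edgeR adjusted p = 0.00739), where Incenp, a passenger complex subunit (1.52 ± 0.41), and the transcription factor Myc (1.48 ± 0.30) rose too. Ccnd2 rose from 0.604 and 0.428 CPM to 5.10 and 1.75 CPM in rejecting kidneys (2.73 ± 0.58). The kinase Cdk2 fell in both groups, from 6.16 and 7.06 CPM to 1.97 and 3.35 in rejecting and 2.23 and 3.30 CPM in tolerized kidneys, as did the Cdk-binding Cks2, from 121 and 154 CPM to 85.7 and 63.6 and to 76.6 and 81.5 CPM. In rejecting kidneys Ccnd3 (40.7 and 50.9 CPM in naive, 31.2 and 30.4 CPM in rejecting) fell as well. In tolerized kidneys the pocket protein gene Rbl1 rose (2.78 and 3.79 CPM in naive, 5.85 and 8.08 CPM in tolerized), and the histone gene H2afz fell.

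In endothelium-like barcodes the 40 genes were unevenly spread between the kidneys of a group. The summed level was 217 and 289 CPM in naive kidneys, with 370 and 1328 CPM in rejecting and 804 and 257 CPM in tolerized ones, so rejecting 2 and tolerized 1 stood apart from the rest and the 2 transplanted groups overlapped. These sums rested on 111 and 66 barcodes in rejecting and 216 and 245 in tolerized kidneys. Mki67 was at 0 and 1.10 CPM in naive kidneys, with 18.1 and 74.9 CPM in rejecting and 51.9 and 1.34 CPM in tolerized ones, Top2a at 0 and 5.50, 23.7 and 96.7, and 51.3 and 4.70 CPM, and Birc5 at 1.35 and 5.50, 1.39 and 65.1, and 33.4 and 2.01 CPM. Mcm5, Pcna and Rrm2 likewise had overlapping groups between rejecting and tolerized kidneys, with Pcna at 47.4 and 50.6, 34.9 and 67.1, and 20.9 and 40.3 CPM. Mki67, Top2a and Birc5 were highest in the same 2 kidneys, rejecting 2 and tolerized 1. The filter on low counts kept 27 of the 40 genes, and edgeR called 0 of the 27 between rejecting and tolerized kidneys (0% of all genes), between rejecting and naive kidneys (11%) and between tolerized and naive kidneys (8.05%). At an unadjusted p under 0.05 there were 0 between rejecting and tolerized (6.09% of all genes), 11 between rejecting and naive (29%) and 5 between tolerized and naive kidneys (26.7%), and DESeq2 called 0, 1 (Cdk1) and 0. Between rejecting and naive kidneys the 0 became 17 of 33 with called doublets kept, all higher in rejecting kidneys (16.9% of all genes called in either direction). With no filter on low counts it became 15 of 40 (12% of all genes). Between tolerized and naive kidneys it became 13 of 40 with no filter (10% of all genes). Leaving out either tolerized kidney gave 4 called genes between rejecting and naive kidneys (10.9% and 11% of all genes) and leaving out rejecting 1 gave 1 (4.77%), and among barcodes with no leukocyte marker UMI 5 were called (5.94% of all genes), from 14 barcodes in rejecting 1. Of the other cell cycle genes, Ccnd1 rose in both groups, from 211 and 206 CPM to 969 and 462 in rejecting (edgeR adjusted p = 0.0317) and 1053 and 592 CPM in tolerized kidneys (edgeR adjusted p = 0.0283). Cdk6 rose and Ccnd2 fell in rejecting kidneys, the latter from 634 and 446 to 116 and 241 CPM (edgeR adjusted p = 0.049), and the inhibitor Cdkn1b rose in tolerized kidneys, from 28.4 and 17.6 to 54.9 and 62.5 CPM (edgeR adjusted p = 0.0339). For these other genes 10.7% were called between rejecting and naive kidneys (background 11%) and 7.14% between tolerized and naive kidneys (background 8.05%). Cdkn1a, at 460 and 447 CPM in naive and 237 to 349 CPM in transplanted kidneys, and Ccnd3, at 142 and 130 against 73.9 to 88.8 CPM, did not pass.

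T cell-like barcodes had the highest mean level of this RNA in both transplanted groups, and the groups lay closer together than in tubular barcodes. The summed level was 1473 and 1433 CPM in rejecting and 1124 and 1298 CPM in tolerized kidneys, giving means of 1453 ± 28.2 and 1211 ± 123 (SD, n = 2 each), a ratio of 1.20 with no overlap, against 1.98 in tubular barcodes. S-phase genes gave 595 and 632 against 474 and 519 CPM, and G2/M genes 878 and 801 against 651 and 779 CPM. All 40 genes passed the filter on low counts, 0 of them reached an unadjusted p under 0.05 (7.83% of 11465 genes) by edgeR or by DESeq2, and none was called by either, with 0% of all genes called by edgeR. Log2 changes ran from -0.58 to 0.70 with a median of 0.11, and 24 of the 40 were above 0 (48.9% of all genes). Rejecting kidneys lay above tolerized ones without overlap for 12 of the 40 (20.1% of all genes) and below for 6 (19.6% of all genes). Without tolerized 1 the median over the 40 genes was -0.06.

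The genes whose groups did not overlap in T cells lay on both sides. Mki67 was at 103 and 94.2 CPM in rejecting and 71.0 and 75.9 CPM in tolerized kidneys (log2 change 0.43 ± 0.20), and Top2a at 135 and 124 against 85.3 and 114 CPM (0.38 ± 0.23). Mcm5, at 37.2 and 30.4 against 29.2 and 28.0 CPM, and the replication-coupled methylation factor Uhrf1, at 14.3 and 10.3 against 10.1 and 7.67 CPM, also did not overlap. For these 4 genes the rejecting kidneys were the higher. Ccnb2, a mitotic cyclin, was at 20.1 and 18.1 CPM in rejecting and 22.4 and 32.4 CPM in tolerized kidneys (-0.51 ± 0.25), and Ccnb1 at 11.4 and 8.604 against 12.1 and 14.9 CPM (-0.42 ± 0.27). Cdc20, which activates the anaphase-promoting complex, was at 14.0 and 11.8 against 14.96 and 19.5 CPM, and the conjugating enzyme Ube2c of the same complex at 47.5 and 48.9 against 50.4 and 70.9 CPM. Cenpf was at 32.9 and 33.8 against 35.9 and 43.4 CPM, and in these 5 genes the rejecting kidneys were the lower. None of these differences passed the test.

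The other named genes overlapped between the groups. Pcna was at 43.1 and 78.5 against 32.2 and 53.1 CPM, Rrm2 at 22.3 and 29.0 against 14.4 and 23.9 CPM, and Mcm6 at 72.9 and 100.7 against 92.3 and 89.4 CPM. Tyms, thymidylate synthase, was at 40.7 and 42.9 against 32.2 and 46.5 CPM, and Gmnn at 50.4 and 51.9 against 52.4 and 49.99 CPM. Birc5 was at 48.8 and 43.0 against 38.8 and 53.7 CPM, and Cdk1, the kinase that drives entry into mitosis, at 26.1 and 27.7 against 17.1 and 30.1 CPM. Aurkb, the kinase of the passenger complex, was at 11.4 and 8.85 against 9.21 and 16.0 CPM, and Plk1, which acts on centrosomes and kinetochores, at 11.9 and 7.38 against 7.90 and 11.2 CPM. Of the other cell cycle genes in T cells 0 of 50 passed, with 2 at an unadjusted p under 0.05 by edgeR and none called by DESeq2. The D cyclin Ccnd2 was at 182 and 227 against 290 and 253 CPM, and Cdkn1a at 23.5 and 40.6 against 21.3 and 19.9 CPM, without overlap and without passing. Ccnd3 (117 to 144 CPM) and Ccnd1 (6.02 to 16.6 CPM) overlapped. Macrophage markers in T cell-like barcodes summed to 995 and 209 CPM in rejecting and 151 and 76.8 CPM in tolerized kidneys, with 1 of 10 at 0 in tolerized 2, and their part in these values was not tested.

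T cell-like barcodes were also split by the UMIs they held, and those with Foxp3 are counted in the Cd4 and CD8 splits as well. After thinning, barcodes with Foxp3, the factor of regulatory T cells, held at least 3 of the genes in 19 of 154 (12.3%) and 16 of 143 (11.2%) in rejecting kidneys and in 15 of 270 (5.56%) and 3 of 130 (2.31%) in tolerized kidneys. Their summed level was 2504 and 2553 against 1661 and 699 CPM. Barcodes with Cd4 and no CD8 gene gave 1497 and 1788 against 1172 and 1141 CPM, and barcodes with a CD8 gene and no Cd4 gave 1496 and 1340 against 1094 and 1622 CPM. Barcodes with neither gave 1253 and 1489 against 982 and 660 CPM, and the 15 to 51 barcodes a kidney with both gave 2294 and 2905 against 2263 and 1233 CPM. Rejecting kidneys overlapped tolerized kidneys in the CD8 set and lay above them in the other 4 sets. These sets were chosen by their UMIs, so a shallow barcode is more easily missed from them, and the differences were not tested.

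The genes differed in how often they were found with others of the 40. Among 8597 T cell-like barcodes of the transplants, 96.5% of those with Bub1, the spindle checkpoint kinase, and 90.2% of those with Ccnb2 held at least 2 more of the genes, against 41.1% and 40.6% of the barcodes without each. For Cenpa, the centromeric histone, it was 46.0% against 29.9%, the lowest of the 40 among barcodes with the gene, and 26.4% of the barcodes with Cenpa held none of the others. Cenpa was at 165 and 169 CPM in rejecting and 151 and 128 CPM in tolerized kidneys and was found in 2352 barcodes. In tubular barcodes the gene least often found with 2 others was Gmnn (38.7% of 2277 barcodes, against 15.1% of those without it). The barcodes of the transplants were pooled here and were not thinned. A barcode with more UMIs shows more genes of any kind, so depth and division cannot be told apart in these shares.

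In myeloid barcodes all 40 genes had a log2 change above 0 between rejecting and tolerized kidneys, and none passed the test. The summed level was 634 and 935 CPM in rejecting, 317 and 599 CPM in tolerized and 183 and 358 CPM in naive kidneys, the naive values resting on 86 and 154 barcodes. The G2/M genes gave 331 and 568 against 103 and 372 CPM, so tolerized 2 overlapped the rejecting kidneys, and the S-phase genes gave 303 and 368 against 213 and 227 CPM without overlap. By edgeR 0 of the 40 and 1 of 12245 genes (0.00817%) reached an adjusted p of 0.05, and by DESeq2 0 of the 40. At an unadjusted p under 0.05 there were 10 of the 40 (25%, against 7.05% of all genes), and rejecting kidneys lay above tolerized ones for 17 of the 40 (18.2% of all genes). The share above 0 over all genes was 50.8%, and the median log2 change was 0.71 over the 40 (0.56 over S-phase and 0.97 over G2/M genes).

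The S-phase genes as a sum were the steadier within groups, although Rrm2 and Tyms among them differed widely between the tolerized kidneys. Pcna was at 46.1 and 63.6 CPM in rejecting and 29.1 and 38.4 CPM in tolerized kidneys (log2 change 0.71 ± 0.23). Mcm5 was at 21.1 and 23.5 against 16.2 and 14.7 CPM (0.52 ± 0.18), Gmnn at 37.1 and 42.9 against 31.0 and 27.0 CPM (0.46 ± 0.17) and Uhrf1 at 11.2 and 10.0 against 4.87 and 8.30 CPM (0.73 ± 0.30). Mki67, at 39.6 and 84.8 against 14.3 and 35.1 CPM (1.37 ± 0.49), and Top2a, at 48.0 and 79.6 against 11.5 and 44.3 CPM (1.23 ± 0.58), did not overlap either, nor did Birc5, at 30.0 and 42.2 against 5.49 and 29.9 CPM (1.11 ± 0.67), and Ccnb1, at 6.45 and 8.17 against 1.23 and 6.16 CPM (1.12 ± 0.66). Tolerized 1 was the lowest kidney for each of these 4 G2/M genes.

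For the other named mitotic genes tolerized 2 lay above at least 1 rejecting kidney. Ube2c was at 23.2 and 35.6 CPM in rejecting and 2.79 and 35.2 CPM in tolerized kidneys, Cdc20 at 5.57 and 7.96 against 1.66 and 8.83 CPM, and Plk1 at 3.32 and 5.50 against 0.426 and 6.16 CPM. Cdk1 was at 14.8 and 24.1 against 4.07 and 18.5 CPM, Ccnb2 at 10.1 and 13.7 against 2.51 and 12.7 CPM, Cenpf at 15.5 and 24.5 against 2.27 and 19.3 CPM, and Aurkb at 9.06 and 12.5 against 5.30 and 11.4 CPM. Rrm2 (10.7 and 13.3 against 2.60 and 12.2 CPM), Tyms (16.2 and 16.2 against 6.57 and 16.2 CPM) and Mcm6 (16.7 and 25.6 against 18.3 and 17.0 CPM) overlapped as well. Without tolerized 1 the median over the 40 genes was 0.26. Without tolerized 2 it was 1.66, so the size of the difference rested on which tolerized kidney was used. Of the other cell cycle genes 0 of 50 passed, and 0 were called by DESeq2. By edgeR 7 had an unadjusted p under 0.05 (14%, where 7.05% of all genes did). Their log2 change was above 0 for 39 of the 50 (78%, where 50.8% of all genes were). Ccnd1 (100 to 151 CPM), Ccnd2 (80.8 to 92.4 CPM), Ccnd3 (76.6 to 91.1 CPM) and Cdkn1a (142 to 266 CPM) did not pass.

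Among the myeloid cells of each transplant the conventional DC-like barcodes stood above the macrophage- and monocyte-like ones in summed level. In thinned share they did so in both rejecting kidneys and in tolerized 2, but not in tolerized 1. Their summed level was 1127 and 1717 CPM in rejecting and 559 and 1282 CPM in tolerized kidneys, with thinned shares of 7.89% and 10.1% against 1.68% and 6.40%. Macrophage-like barcodes of the tolerized kidneys had thinned shares of 2.19% to 3.23%, above the 1.68% of conventional DC-like barcodes in tolerized 1. Macrophage-like barcodes gave 504 and 1013 CPM against 338 and 413 CPM, and monocyte-like barcodes 692 and 538 against 242 and 507 CPM. The groups stood apart in macrophage- and monocyte-like barcodes, while in conventional DC-like barcodes tolerized 2 lay above rejecting 1. T cell markers in myeloid barcodes summed to 160 and 59.6 CPM in rejecting and 19.1 and 28.8 CPM in tolerized kidneys, with none of the 10 at 0, and their part in the result was not tested.

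In B cell-like barcodes the spread within groups was as wide as the difference between them. The summed level was 500 and 664 CPM in rejecting, 402 and 703 in tolerized and 329 and 223 in naive kidneys, the last from 29 and 78 barcodes. Mki67 was at 30.5 and 72.4 CPM in rejecting and 5.07 and 93.5 in tolerized kidneys, and Rrm2 at 4.62 and 12.8 against 6.19 and 46.7 CPM. Top2a (27.7 and 61.4 against 16.3 and 66.7 CPM), Birc5 (9.24 and 23.7 against 2.82 and 26.8 CPM), Mcm5 (11.1 and 9.12 against 10.7 and 21.7 CPM) and Pcna (25.9 and 38.9 against 23.1 and 36.5 CPM) overlapped as well. The filter kept 30 of the 40 genes, of which edgeR called 0 (0% of 8276 genes), with 0 at an unadjusted p under 0.05 (3.02% of all genes) and 0 called by DESeq2. Without tolerized 1, 3 of 32 genes were called (2.44% of all genes), Cdc20, Tyms and Rrm2, all lower in rejecting kidneys. Macrophage markers in these barcodes summed to 1901 and 992 against 473 and 1691 CPM, and their part was not tested. The other cell cycle genes gave 0 of 37, with 0 at an unadjusted p under 0.05 by edgeR and 0 by DESeq2, and Ccnd2 was at 74.9 and 158 against 110 and 145 CPM.

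NK cell-like barcodes, 115 to 127 in each transplant, held too few UMIs for most of the genes. The summed level was 504 and 435 CPM in rejecting and 501 and 361 CPM in tolerized kidneys, which overlapped. The filter kept 4 of the 40 genes, of which edgeR called 0 (0.334% of 4495 genes), with 0 at an unadjusted p under 0.05 (6.59% of all genes) and 0 by DESeq2. Pcna, the 1 named gene kept, was at 47.9 and 68.4 against 39.2 and 55.8 CPM. The genes that were not kept are given as CPM without TMM scaling. Mki67 was at 37.0 and 6.96 CPM in rejecting and 0 and 5.96 CPM in tolerized kidneys, with Birc5 at 27.8 and 3.48 CPM against 0 in both. Top2a was at 50.9 and 24.4 against 18.6 and 13.9 CPM, Mcm5 at 9.25 and 13.9 against 20.9 and 9.93 CPM, and Rrm2 at 9.25 and 0 against 4.64 and 0 CPM, all of them from 11 UMIs a kidney or fewer. Differences in these genes were not detectable at this depth. Ccnd2 was at 647 and 533 against 493 and 462 CPM and did not pass, and of the other cell cycle genes 0 of 16 passed, with 2 at an unadjusted p under 0.05 by edgeR and 0 called by DESeq2.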

How the data were processed

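Single cells of 6 kidneys were measured by droplet RNA-seq (10x). The authors made the UMI counts with Cell Ranger (version 3.0.1 in the file headers) on mm10 and deposited 1 raw count matrix per kidney, with no further normalization. The naive matrices list 28692 genes and the others 31053, and the 28208 shared genes were used. Of the barcodes, 49797 reached 500 UMIs and 250 genes with mitochondrial UMIs not above 50%, and were kept. The highest Scrublet-type doublet scores, at a rate of 0.8% per 1000 barcodes, were removed (4130). This fixed quota took 450 to 1256 barcodes a kidney, where Scrublet's own cutoff called 4 to 296. In naive 1 and naive 2 it took 539 and 450, where that cutoff called 4 in each. Clusters were made with scanpy 1.11.5 and the Leiden method of igraph 0.11.9 without cell cycle, ribosomal, mitochondrial and histone genes, and were named from marker genes. Counts of each class were summed per kidney and tested with edgeR 4.0.16 (filterByExpr, TMM, quasi-likelihood F test, Benjamini-Hochberg adjustment over all genes, threshold 0.05), separately in each class, with CPM of named genes TMM-scaled. DESeq2 1.42.0 and R 4.3.3 were used for alternatives. The replicates are separate kidneys by their labels. On simulated counts with the real library sizes, 4-fold changes were recovered for 88% of changed genes in tubular, 84% in T cell-like, 79.5% in myeloid, 76.5% in endothelium-like, 86% in NK cell-like and 45.5% in B cell-like barcodes, and 2-fold changes for 39%, 20%, 26.5%, 4%, 8% and 0%. The simulated spread followed edgeR's trend with expression and left out the spread of single genes. The changed genes were drawn from all tested genes, so recovery among the 40 genes may be lower. The genes named were a fixed set per class, every one of the 40 past the threshold (the 5 with the largest change in each direction where over 10 passed), the same for the other cell cycle genes, and Ccnd1, Ccnd2, Ccnd3 and Cdkn1a. A gene that this rule would name is not reported here. The 40 genes, the lists and the tests were chosen with earlier results of these data known. Promoter sequences are from RefSeq on GRCm38.p6.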

Additional observations from a re-analysis of the deposited data

Results flagged for a closer look

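The share of barcodes with at least 3 of the 40 genes differed in direction between classes, with rejecting minus tolerized kidneys at 6.09 percentage points in endothelium-like barcodes against -13.0 in T cell-like, -8.41 in B cell-like and -9.48 in NK cell-like barcodes, each without overlap between the groups. The difference between classes was not tested, and median UMIs per barcode were lower in the rejecting kidneys in all 3 classes with a negative value.

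Part of the genes named in the text were searched for kidneys that lay apart in opposite directions in 2 classes. For 6 genes rejecting and tolerized kidneys lay apart in this way, and none of these differences between classes was tested. Of all genes, 16.7% to 20.1% lay apart in a given direction in tubular, T cell-like or myeloid barcodes. How many did so in opposite directions in 2 classes was not counted. Ccnb1 had a log2 change of -0.42 in T cell-like and 1.12 in myeloid barcodes. Against tubular barcodes, Ccnb2 had -0.51 in T cell-like and 1.32 in tubular barcodes, Cenpf -0.24 and 1.53, and Ube2c -0.33 and 1.68. Gmnn had 0.46 in myeloid and -0.12 in tubular barcodes, and Mcm6 -0.49 in B cell-like and 0.99 in tubular barcodes.

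Barcodes that failed the filters were not used in any comparison, and at least 3 of the genes were detected in 2.01% of them in rejecting 1, 1.99% in rejecting 2, 1.47% in tolerized 1 and 1.10% in tolerized 2. The naive kidneys gave 0.284% and 0.495%.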

How the results depend on the processing

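Counts of genes past the threshold changed as follows, with the share of all genes called by the same fit in brackets, and the cause was not tested. Of the 40 genes, those called between rejecting and tolerized kidneys in tubular barcodes numbered 0, against 6 with DESeq2 (1.51%), 15 with no filter on low counts (3.36%) and 0 to 2 with a kidney left out (0% to 1.29%), and in myeloid barcodes 0, against 8 with no filter (2.03%). In tubular barcodes the 13 called between rejecting and naive kidneys became 21 with called doublets kept (34.6%) and 2 to 14 with a kidney left out (13% to 31.1%), and the 5 between tolerized and naive kidneys became 8 with no filter (21.7%) and 1 to 6 (6.4% to 26.2%). In endothelium-like barcodes the 0 between rejecting and naive kidneys became 1 with DESeq2 (9.91%), with at most 20% mitochondrial UMIs (12.1%) or with barcodes classed by their own markers (12.8%), 5 at clustering resolution 0.8 (21.4%) or with no leukocyte marker UMI (5.94%), 15 with no filter (12%), 17 with doublets kept (16.9%) and 0 to 4 with a kidney left out (0.761% to 11%), and the 0 between tolerized and naive kidneys became 13 with no filter (10%), 1 with doublets kept (8.9%) and 0 to 3 (0.359% to 10%). In B cell-like barcodes it was 0 to 3 with a kidney left out (0.0679% to 2.44%). For the other cell cycle genes, tested in the same fits, in tubular barcodes 0 between rejecting and tolerized kidneys became 1 with DESeq2, 4 with no filter and 0 to 1 with a kidney left out, 17 between rejecting and naive became 11 with no leukocyte marker UMI (24.7%) and 2 to 17, and 6 between tolerized and naive became 12 with at most 20% mitochondrial UMIs (25.1%) and 2 to 8. In endothelium-like barcodes 0, 3 and 2 in the same order became 1, 9 and 5 with no filter, 3 became 8 with doublets kept, 2 became 4 with barcodes classed by their own markers, and leaving out a kidney gave 0 to 5 for the 3 and 0 to 3 for the 2. In myeloid barcodes 0 became 2 with no filter, and in B cell- and NK cell-like barcodes 0 to 1 were called with a kidney left out.
The difference in share, rejecting minus tolerized in percentage points, was -4.16 in tubular barcodes and -7.47 at 2 genes, 0.186 at 5 genes, 1.12 when thinned and -0.973 with at most 20% mitochondrial UMIs. In T cell-like barcodes -13.0 became -16.5, -3.30 and 1.80 for the first 3 of these and -8.85 at 1000 UMIs or more. In NK cell-like barcodes -9.48 became -20.5, -1.78 and 0.278, -8.58 at 1000 UMIs or more, -10.05 with at most 20% mitochondrial UMIs and -8.71 at resolution 0.8. In B cell-like barcodes -8.41 became -2.61 at 5 genes and -0.329 when thinned, in myeloid barcodes -1.02 became 0.284 and 1.83, with -3.10 to 1.06 when a kidney was left out, and in endothelium-like barcodes 6.09 became 2.64 with no leukocyte marker UMI.
The log2 ratio of summed CPM changed sign when a kidney was left out in endothelium-like (0.63, from -0.29 to 1.55), B cell-like (0.12, from -0.29 to 0.52) and NK cell-like barcodes (0.14, from -0.097 to 0.37, and -0.0093 with at most 20% mitochondrial UMIs), and among the genes named in myeloid barcodes for Ube2c (0.72, from -0.25 to 3.40) and Rrm2 (0.80, from -0.0087 to 2.21), both lowest without tolerized 1. Fits with a kidney left out assume that the remaining one varies like the other groups.
The labels number the kidneys without saying that a number marks a shared animal, batch or day. The study mentions separate experiments, which the labels do not tie to kidneys, so an effect of experiment cannot be told apart here. Across genes, the log2 difference between replicate 1 and replicate 2 in rejecting kidneys was correlated with the same difference in tolerized kidneys. The correlation was 0.294 in tubular, 0.229 in endothelium-like, 0.217 in B cell-like, 0.0229 in NK cell-like, -0.16 in T cell-like and -0.0488 in myeloid barcodes. With a replicate block, the number of the 40 genes at an unadjusted p under 0.05 by edgeR in myeloid barcodes went from 10 to 24. The matching change over all genes is not given here, so no excess of the 40 genes is read from it. The block gave 14 called of the 40 genes between rejecting and naive and 5 between tolerized and naive kidneys in tubular barcodes. The share of all genes called by that fit is not given here, so no excess is read from these counts either. Between rejecting and tolerized kidneys the block gave 0 in every class. A crossed pairing in T cell-like barcodes also gave 0. The crossed pairing, the barcodes without leukocyte markers and the fits without a naive kidney were chosen after seeing the data. In simulated counts 2-fold changes were recovered for 0% of changed genes in B cell-like, 8% in NK cell-like and 4% in endothelium-like barcodes, so differences of that size may be missed there.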
